A study of Rattus norvegicus with 30 samples.

Results

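Lung expression of 9 genes for channels and a pump of alveolar fluid clearance was followed in rats with severe acute pancreatitis (SAP) and its acute lung injury. The genes were chosen by symbol (Aqp1, Aqp3, Aqp4, Aqp5, Scnn1a, Scnn1b, Scnn1g, Atp1b1 and Cftr). Each symbol matched 1 of the 22914 annotated genes with read counts, and all 9 passed the filter on low counts. Male Sprague Dawley rats aged 8 weeks fell into 10 groups of 3, and each library came from the lung of 1 rat, taken 6 or 24 h after surgery under pentobarbital. In the Sham groups the pancreas was only turned, and in the Con groups saline was infused into the biliopancreatic duct. The SAP, DEX and Emo groups were infused with 5.0% sodium taurocholate, a bile salt that damages the pancreas. DEX rats then received dexamethasone, a synthetic glucocorticoid, into a vein at 10 mg/kg, and Emo rats received emodin, an anthraquinone of rhubarb, into the stomach. For emodin the sample descriptions give 10 mg/kg and the treatment protocol 40 mg/kg, so its dose is uncertain here. Drugs were given at 2 and 12 h, so rats of the 6 h groups had 1 dose and rats of the 24 h groups had both, and the other groups received the vehicles. Neither drug was given to rats without taurocholate, so a drug effect is measured only on top of SAP.

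Fluid leaves the air space of the lung behind sodium. Sodium ions enter alveolar epithelial cells from the air side through the epithelial sodium channel ENaC, built of the alpha, beta and gamma subunits that Scnn1a, Scnn1b and Scnn1g encode. On the blood side they are pumped out by the Na,K-ATPase, of which Atp1b1 encodes the beta 1 subunit, needed to bring the pump to the membrane. Water follows by osmosis, in part through aquaporins. Aqp5 is a water channel of the flat type 1 cells, Aqp1 of capillary endothelium, Aqp3 of basal airway cells and Aqp4 of the basolateral side of airway and alveolar epithelium, and Cftr is a chloride channel regulated by cAMP. In whole lung tissue, fewer cells of a type and less RNA per cell cannot be told apart.

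Reads counted on genes ranged from 16813949 to 34692306 per library, and the 9 genes had between 82 reads (Cftr) and 46561 reads (Aqp1) in a library. Markers of alveolar type 1 cells (8 genes), type 2 cells (9), club cells (5) and endothelium (7) were present in every group, except Cckar, listed with the club cells. Cckar was at 0 in all libraries of Sham-6h, SAP-6h, DEX-6h and SAP-24h. The summed FPKM of 8 heart muscle markers ranged from 7.46 to 326 between libraries. FPKM is the number of fragments scaled to the length of the gene and to the mapped reads of the library, and it is the scale on which levels of different genes are set side by side below. Replicate 1 of SAP-24h stood apart in type 1 markers, with a sum of 1530 FPKM against 3180 and 3020 in replicates 2 and 3. According to the study's mapping summary, libraries of rats given taurocholate also mapped less well than those of Sham and Con rats. In comparisons with Sham or Con, this difference and the infusion cannot be told apart. The unique mapping rate was also higher, without overlap, in Emo-24h than in DEX-24h, in both of these than in SAP-24h, in both than in the 6 h group of the same drug, and in SAP-6h than in DEX-6h. Its part in the drug and time comparisons was not tested.

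The genes differed widely in level. The mean over the 30 libraries was 241 FPKM for Aqp1, 177 FPKM for Scnn1a, 171 FPKM for Atp1b1 and 142 FPKM for Aqp5. Aqp3 followed with 55.4 FPKM, then Scnn1g with 20.7, Scnn1b with 12.1, Aqp4 with 7.29 and Cftr with 0.868 FPKM. The alpha subunit of ENaC was thus far more abundant than its beta and gamma partners. Cftr was the lowest of these genes, with rank 12706 by mean FPKM, where 22907 genes had FPKM values. Scnn1a was also the steadiest gene, with a highest library 1.93 times the lowest, whereas this ratio was 141 for Aqp3, from 1.78 FPKM in replicate 2 of Sham-6h to 252 FPKM in replicate 3 of DEX-6h. Within groups, the median coefficient of variation was 10.7% for Scnn1a, 14.9% for Atp1b1 and 17.9% for Aqp1, against 50.6% for Aqp3. When the groups were ordered by their mean, most neighbours overlapped. Rats of neighbouring groups did not overlap in 4 cases only, which were Sham-6h above Con-24h and Sham-24h above DEX-24h for Aqp1, DEX-6h above DEX-24h for Aqp3 and SAP-24h above Sham-24h for Scnn1a.

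**Figure D1:**
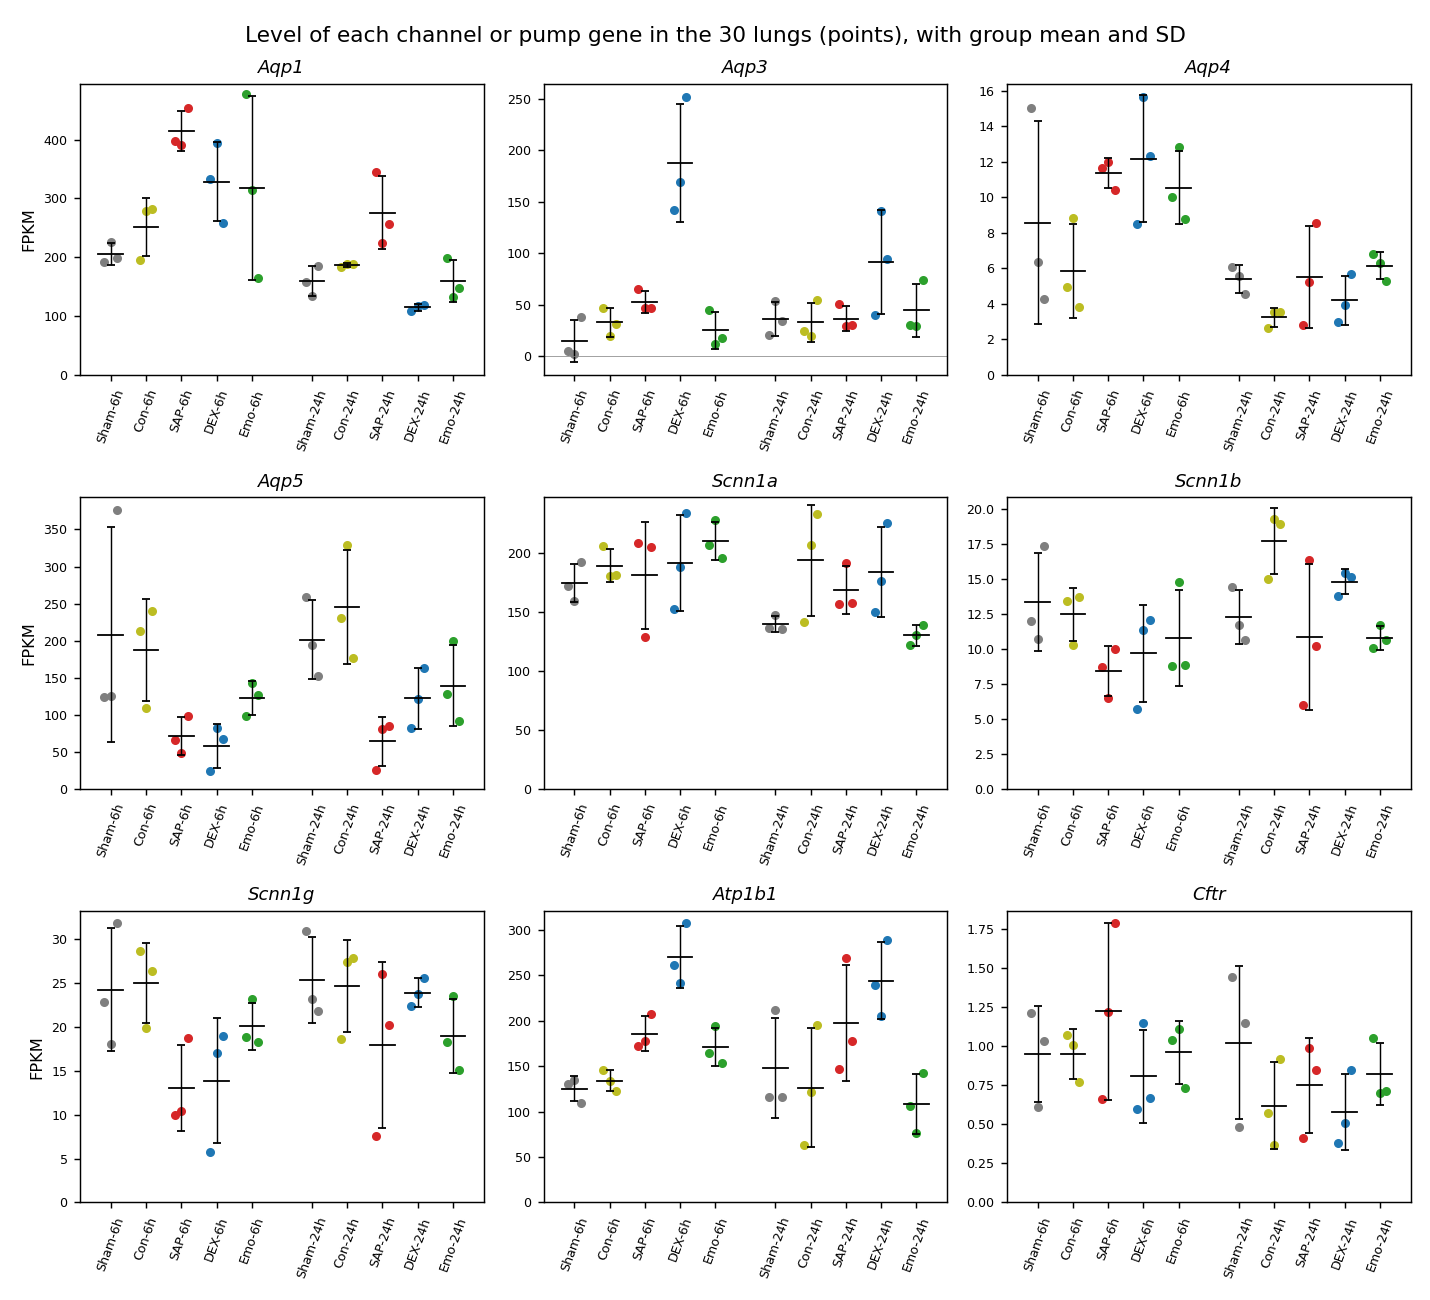
FPKM of each of the 9 genes (vertical axes, linear and different for each gene) in the 10 groups. Points are single rats (n = 3 per group), lines are group means and whiskers are SD. By group mean, Aqp1 was highest in SAP-6h, Aqp3 and Atp1b1 were highest in DEX-6h, and Aqp5 was lowest in DEX-6h and SAP-24h.

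The promoters of 4 of these genes are shown, Aqp1 because it was called most often and Aqp5, Scnn1b and Scnn1g because their levels moved together from rat to rat. The RefSeq promoter table (build GRCr8, 250 bases before to 50 bases after the start, read 5′ to 3′ on the strand of the gene) held 7 of the 9 genes, without Scnn1a and Atp1b1. Capitals mark matches to 5 short motifs on either strand, AGAACA (part of the glucocorticoid receptor element), GGGCGG (the core of an Sp1 site), TATAAA (bound by the basal transcription machinery), TGACG (the core of a cAMP response element) and CACGTG (an E-box, equal to its own reverse complement). A match is a description of letters and not a site of binding.
Aqp1 promoter, chr4:85812534-85812833, plus strand: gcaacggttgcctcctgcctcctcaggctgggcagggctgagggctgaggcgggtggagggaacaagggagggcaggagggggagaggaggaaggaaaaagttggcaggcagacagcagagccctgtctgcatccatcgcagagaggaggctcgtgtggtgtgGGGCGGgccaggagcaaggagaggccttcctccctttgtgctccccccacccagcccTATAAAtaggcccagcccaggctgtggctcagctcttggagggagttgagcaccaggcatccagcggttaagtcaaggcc
Aqp5 promoter, chr7:132601278-132601577, plus strand: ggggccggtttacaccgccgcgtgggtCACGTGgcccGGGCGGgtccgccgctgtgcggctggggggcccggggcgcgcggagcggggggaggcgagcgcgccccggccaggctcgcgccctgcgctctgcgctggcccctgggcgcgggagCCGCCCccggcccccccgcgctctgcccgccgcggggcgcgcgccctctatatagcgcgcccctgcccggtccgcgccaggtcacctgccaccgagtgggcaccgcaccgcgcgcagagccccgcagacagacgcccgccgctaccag
Scnn1b promoter, chr1:185861126-185861425, plus strand: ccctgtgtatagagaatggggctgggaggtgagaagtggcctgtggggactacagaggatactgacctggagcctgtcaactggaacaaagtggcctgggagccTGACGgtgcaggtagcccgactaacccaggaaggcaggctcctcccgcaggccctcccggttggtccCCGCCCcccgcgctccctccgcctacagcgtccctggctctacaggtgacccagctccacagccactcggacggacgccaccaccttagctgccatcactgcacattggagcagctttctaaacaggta
Scnn1g promoter, chr1:185735975-185736274, plus strand: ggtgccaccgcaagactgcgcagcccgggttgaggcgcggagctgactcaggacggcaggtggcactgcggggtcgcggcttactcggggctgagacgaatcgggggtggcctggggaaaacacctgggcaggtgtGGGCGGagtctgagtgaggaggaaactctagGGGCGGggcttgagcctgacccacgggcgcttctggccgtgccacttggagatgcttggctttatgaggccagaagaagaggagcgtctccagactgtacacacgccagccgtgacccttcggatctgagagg
The GGGCGG motif occurred in all 4, at position -87 in Aqp1, at -213 and -98 in Aqp5, at -79 in Scnn1b and at -114 and -83 in Scnn1g, counted from the transcription start to the first base of the match. It is also common elsewhere, in 33.1% of the 33469 rat promoters in the table. TATAAA was found at -30 in Aqp1 (14.2% of all promoters), CACGTG at -223 in Aqp5 (6.42%) and TGACG at -146 in Scnn1b (21.2%). AGAACA, which 20.7% of all promoters contain, was in none of the windows of the 7 genes. The Aqp5 window was the richest in G and C with 82.3%, against 62.7% in Scnn1b, 64.0% in Aqp1, 65.0% in Scnn1g and a median of 51.7% over all promoters.

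The groups were compared in 21 pairs by edgeR's quasi-likelihood test, and a gene is called up-regulated or down-regulated here at an adjusted p under 0.05, whatever its fold change. Of 189 tests (9 genes in 21 comparisons), 15 were called, 3 of them higher and 12 lower in the first group named. They fell in 9 of the 21 comparisons. Over all genes, the same test called from 4.31% (Emo vs SAP) to 13.4% (24 h vs 6 h) of tests, depending on the kind of comparison. Nothing particular to the 9 genes is read from their count. Aqp1 was called in 5 comparisons, Aqp5 and Atp1b1 in 3 each, Aqp3 in 2, and Aqp4 and Scnn1a in 1 each. Scnn1b, Scnn1g and Cftr were called in none by this test, although Scnn1b was called in 1 by limma.

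For the lung injury itself, none of the 9 genes was called between SAP-6h and Sham-6h, where 0.27% of the 15934 genes tested were called. Without adjustment, 6 of them had a p under 0.05, as did 13.1% of all genes, and DESeq2 called 2 (Aqp1 and Aqp5) and limma 0. Between SAP-24h and Sham-24h, 2 were called, Aqp1 up-regulated and Aqp5 down-regulated, against a background of 12.4% of genes. The median log2 fold change of the 9 genes was 0.39 at 6 h and 0.14 at 24 h, and that of all genes was -0.018 and -0.032.

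Treatment with DEX was followed by no call at 6 h (DEX-6h vs SAP-6h, background 0.979%; 1 gene at an unadjusted p under 0.05, as 12.1% of all genes, 0 with DESeq2 and limma) and by 1 at 24 h, the down-regulation of Aqp1 (DEX-24h vs SAP-24h, background 7.71%). Emodin gave none at 6 h (Emo-6h vs SAP-6h, background 0.0314%; 0 genes at an unadjusted p under 0.05, where 13.5% of all genes were, and 0 with DESeq2 and limma). At 24 h emodin gave 2, both lower, in Aqp1 and Atp1b1 (Emo-24h vs SAP-24h, background 8.59%; 3 with DESeq2, 0 with limma). Between the drugs, Aqp3 was lower in Emo-6h than in DEX-6h (background 2.88%) and Atp1b1 was lower in Emo-24h than in DEX-24h (background 8.89%).

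Set against Sham instead of SAP, DEX-6h had 3 calls, with Aqp3 and Atp1b1 up-regulated and Aqp5 down-regulated (background 9.75%), in rats that differ by taurocholate and drug at once. The counts were 0 for DEX-24h vs Sham-24h (background 6.97%; 2 at an unadjusted p, as 19.9% of all genes), 0 for Emo-6h vs Sham-6h (3.26%; 1 at an unadjusted p, as 22.6%) and 0 for Emo-24h vs Sham-24h (0%; 0 at an unadjusted p, against 3%), and DESeq2 and limma also called 0 in each.

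Saline infusion and sham surgery were compared as the controls of the study. None of the 9 was called for Sham-6h vs Con-6h (background 0%; 0 at an unadjusted p, against 8.61% of all genes) or for Sham-24h vs Con-24h (9.85%; 1 at an unadjusted p, against 27%), with 0 by DESeq2 and limma. SAP-6h vs Con-6h also gave 0 (0.207%; 4 at an unadjusted p, against 10.4%, 0 with DESeq2 and limma). SAP-24h vs Con-24h gave 1, the lower Aqp5, in a comparison where 22.1% of all genes were called (5 at an unadjusted p, against 35.1%). DESeq2 called 3 there, Aqp5 and the higher Aqp1 and Atp1b1 (Atp1b1 0.78, adjusted p = 0.0376). Limma called 2, Aqp5 and the lower Scnn1b. The 3 comparisons of SAP-24h, DEX-24h and Emo-24h with SAP-6h, DEX-6h and Emo-6h called 0, 2 and 2 of the 9 genes, all of these lower at 24 h. The backgrounds were 6.01% for SAP-24h vs SAP-6h (1 at an unadjusted p, against 24.8%, 0 with DESeq2 and limma), 25.9% for DEX-24h vs DEX-6h and 34.1% for Emo-24h vs Emo-6h. Sham-24h vs Sham-6h (0.992%; 0 at an unadjusted p, against 20.4%) and Con-24h vs Con-6h (0.0126%; 1 at an unadjusted p, against 10.5%) called 0, as did DESeq2 and limma.

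Whether an effect differed between 6 and 24 h was tested by interaction terms of the same edgeR model, which called none of the 9 genes. The background was 0.0314% for SAP vs Sham (0 of the 9 genes at an unadjusted p, against 12.6% of all genes), 0.169% for DEX vs SAP (1, against 13.6%) and 3.57% for Emo vs SAP (2, against 23.4%), and DESeq2 and limma called 0. In the 9 comparisons with a call, 1 to 3 of the 9 genes were called beside backgrounds from 2.88% to 34.1%, and nothing particular to these genes is read from their counts.

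**Figure D2:**
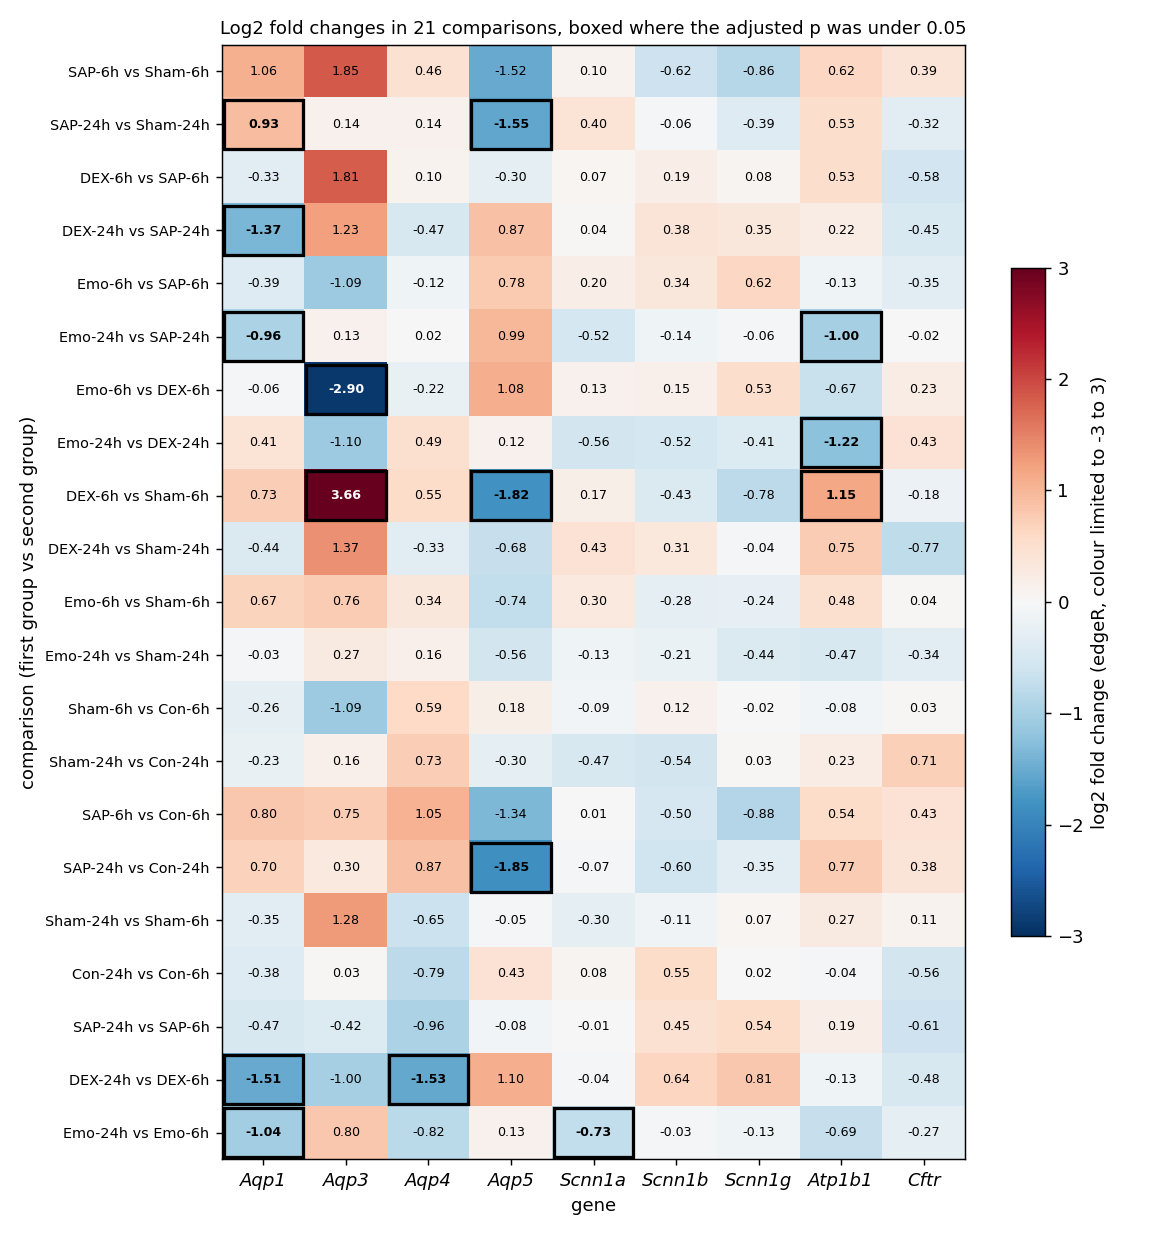
Log2 fold changes of the 9 genes (columns) in the 21 comparisons of 2 groups (lines of the grid). Red is higher and blue is lower in the first group named, and boxes mark the 15 calls at an adjusted p under 0.05. Aqp1 carries 5 boxes and Scnn1b, Scnn1g and Cftr carry none.

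Aqp1 (ENSRNOG00000011648, chromosome 4), the water channel of endothelium and red cells, was up-regulated at 24 h in SAP lungs relative to Sham. It measured 192, 226 and 198 FPKM in Sham-6h and 398, 391 and 454 FPKM in SAP-6h, so every SAP rat lay well above every Sham rat. The log2 fold change was 1.06 (standard error 0.259), yet this did not pass the edgeR test (adjusted p = 0.0798), whereas DESeq2 gave an adjusted p of 0.0091 and limma 0.0891. At 24 h the levels were 158, 134 and 186 FPKM in Sham-24h and 345, 225 and 257 FPKM in SAP-24h. The groups again did not overlap, and Aqp1 was up-regulated by 0.93 on the log2 scale (standard error 0.258, edgeR adjusted p = 0.0218). This call was lost without replicate 1 of SAP-24h (0.69, adjusted p = 0.123) and without replicate 1 or 2 of Sham-24h (0.93 and 0.84, adjusted p = 0.0621 and 0.094), and when the compared groups were fitted alone. Against the saline controls Aqp1 was not called, with 0.80 in SAP-6h vs Con-6h (standard error 0.258, edgeR adjusted p = 0.234) and 0.70 in SAP-24h vs Con-24h (standard error 0.257, edgeR adjusted p = 0.0524, DESeq2 0.0288, limma 0.127).

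Both treatments were followed by lower Aqp1 at 24 h. The 3 DEX-24h rats had 108, 117 and 119 FPKM, the lowest and tightest levels of any group with SAP, below the lowest SAP-24h rat and also below the lowest Sham-24h rat. Aqp1 fell by 1.37 on the log2 scale relative to SAP-24h (standard error 0.261, edgeR adjusted p = 0.00259), and the call held in all 6 fits with a rat left out and under each of the 6 other settings tried. Emo-24h rats had 199, 132 and 147 FPKM, all of them below the SAP-24h rats, which is -0.96 on the log2 scale (standard error 0.258, edgeR adjusted p = 0.0257). This second call was lost without replicate 1 of SAP-24h (-0.72), without replicate 2 of Emo-24h (-0.86) or without replicate 3 of Emo-24h (-0.97, adjusted p = 0.0545), with the compared groups alone and with limma. DEX-24h and Emo-24h did not differ by the test (0.41, standard error 0.256, edgeR adjusted p = 0.4), and the 95% interval of this difference, taken from its standard error, runs from -0.10 to 0.91.

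At 6 h neither treated group was called against SAP. DEX-6h rats had 333, 394 and 259 FPKM and Emo-6h rats 477, 314 and 164 FPKM, and the Emo-6h group spread over the whole range from Sham to SAP. From 6 to 24 h, Aqp1 fell by 1.51 on the log2 scale with DEX (standard error 0.262, edgeR adjusted p = 0.000407) and by 1.04 with emodin (standard error 0.259, adjusted p = 0.00365). The first was kept in each fit with 1 rat left out. The second was lost without replicate 1 of Emo-6h (-0.61, adjusted p = 0.064) and with the compared groups alone (adjusted p = 0.0661). In SAP rats without a drug the change was -0.47 (standard error 0.257, edgeR adjusted p = 0.255). The interaction with time was -1.04 for DEX vs SAP (standard error 0.363, edgeR adjusted p = 0.205), so a difference between the changes with and without DEX was not shown.

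Red cell markers moved with Aqp1. Pearson's r between log2(FPKM + 1) of Aqp1 and the score of 6 red cell markers was 0.653 over 30 rats (Spearman's rho 0.578, permutation test p = 0.00012, adjusted p = 0.0018 over 90 pairs of gene and marker list), 0.565 without the 2 farthest rats and 0.43 for deviations within groups. It was 0.636 at 6 h and 0.11 at 24 h. The summed level of these markers was 8140 to 12600 FPKM in SAP-6h against 972 to 4940 FPKM in Sham-6h, but 1440 to 2630 FPKM in SAP-24h against 662 to 4870 FPKM in Sham-24h. It was 3960 to 10200 FPKM in Emo-6h and 377 to 1630 FPKM in Emo-24h. The red cell ranges were separate in SAP-6h vs Sham-6h and in Emo-24h vs Emo-6h and overlapped in SAP-24h vs Sham-24h. Endothelial markers (7 genes) summed to 1050 to 1190 FPKM in SAP-24h, 1080 to 1230 FPKM in DEX-24h, 935 to 1180 FPKM in Sham-24h and 938 to 1130 FPKM in Emo-24h, and these ranges overlapped. At 6 h they summed to 1360 to 1800 FPKM in SAP-6h, 1600 to 1800 FPKM in DEX-6h and 1370 to 1950 FPKM in Emo-6h, against 1280 to 1290 FPKM in Sham-6h. Their ranges were thus separate, in the direction of Aqp1, between SAP-6h and Sham-6h and between the 2 times in both drug groups. Type 1 cell markers (8 genes) moved opposite to Aqp1, with r = -0.594 over 30 rats (rho -0.656, permutation test p = 0.00038, adjusted p = 0.00427; -0.628 without the 2 farthest rats, -0.358 within groups, -0.495 at 6 h and -0.654 at 24 h). Their sums overlapped in each of the 5 comparisons in which Aqp1 was called, for example 1530 to 3180 FPKM in SAP-24h and 3060 to 3780 FPKM in DEX-24h. Neutrophil markers (8 genes) had r = 0.469 with Aqp1 (permutation test p = 0.00874, adjusted p = 0.0582; 0.463 without the 2 farthest rats, 0.414 within groups, 0.558 at 6 h and 0.429 at 24 h) and rho = 0.539 (permutation p = 0.00246, adjusted p = 0.0221). Their sum was 4490 to 16400 FPKM in SAP-24h and 1020 to 2980 FPKM in DEX-24h, separate in the direction of Aqp1. It overlapped in SAP-24h vs Sham-24h (207 to 9280 FPKM in Sham-24h), in Emo-24h vs SAP-24h (4290 to 6630 FPKM in Emo-24h) and in DEX-24h vs DEX-6h (1080 to 3090 FPKM in DEX-6h). Between the emodin groups it was separate in the other direction, with 1350 to 3800 FPKM in Emo-6h. Other lists were also separate where Aqp1 was called. In SAP-24h vs Sham-24h, club cell markers were higher in SAP-24h (37500 to 47300 against 20000 to 36100 FPKM), while ciliated cell markers (281 to 547 against 580 to 697 FPKM) and basal and squamous cell markers (32.8 to 48.0 against 102 to 130 FPKM) were lower. Relative to the same SAP-24h rats, DEX-24h was lower in club cell markers (25400 to 36400 FPKM) and higher in basal and squamous cell markers (80.5 to 171 FPKM), and Emo-24h was higher in basal and squamous cell markers (76.3 to 89.1 FPKM) and in B and plasma cell markers (39.3 to 61.5 against 19.6 to 33.8 FPKM). Between the DEX groups, B and plasma cell markers were separate in the direction of Aqp1, at 34.5 to 54.7 FPKM in DEX-6h and 8.86 to 22.4 FPKM in DEX-24h. The part of these marker lists in the Aqp1 results was not tested.

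Aqp3 (ENSRNOG00000009797, chromosome 5), an aquaporin that also passes glycerol, was high in DEX-6h. DEX-6h rats had 142, 169 and 252 FPKM, whereas SAP-6h rats had 64.8, 46.3 and 47.1 FPKM and Sham-6h rats 4.77, 1.78 and 38.4 FPKM. No rat of the other 9 groups reached the lowest DEX-6h rat. Relative to Sham-6h the log2 fold change was 3.66 (standard error 0.815, edgeR adjusted p = 0.00679), and it stayed called whichever of the 6 rats was left out, between 3.15 and 5.88, but not when the compared groups were fitted alone. Endothelial marker sums were separate in the same direction, 1600 to 1800 FPKM in DEX-6h and 1280 to 1290 FPKM in Sham-6h, and their part was not tested. The spread of Sham-6h enters this value, since its replicate 3 lay far above its other rats. Relative to SAP-6h, where the ranges did not overlap either, the log2 fold change of 1.81 did not pass (standard error 0.755, edgeR adjusted p = 0.306).

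Emo-6h rats had lower Aqp3 than DEX-6h rats, with 45.1, 12.1 and 17.5 FPKM. The difference of -2.90 on the log2 scale (standard error 0.787, edgeR adjusted p = 0.0463) was close to the threshold and was lost in all 6 fits that left out 1 rat (DEX-6h or Emo-6h replicate 1, 2 or 3, from -3.66 to -2.56, adjusted p up to 0.159), with the replicate block and when the compared groups were fitted alone. At 24 h, DEX-24h had 39.9, 141 and 94.0 FPKM and SAP-24h had 50.1, 29.2 and 29.8 FPKM, so these groups overlapped. DEX-24h was not called against SAP-24h (1.23, edgeR adjusted p = 0.334) or Sham-24h (1.37, edgeR adjusted p = 0.323). Sham-24h, Con-24h and Emo-24h lay between 19.3 and 73.5 FPKM. Standard errors of the log2 fold change were larger for Aqp3 than for any other of the 9 genes.

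Aqp4 (ENSRNOG00000016043, chromosome 18) was lower at 24 h than at 6 h, and the difference was called in the DEX groups. The levels were 8.50, 15.7 and 12.3 FPKM in DEX-6h and 2.97, 3.94 and 5.65 FPKM in DEX-24h. The groups did not overlap, and Aqp4 fell by 1.53 on the log2 scale (standard error 0.374, edgeR adjusted p = 0.00513), a call kept in every fit with a rat left out and in the 6 other settings. In the same direction but not called were SAP-24h vs SAP-6h (-0.96, edgeR adjusted p = 0.111), Emo-24h vs Emo-6h (-0.82, 0.0857), Con-24h vs Con-6h (-0.79, 0.454) and Sham-24h vs Sham-6h (-0.65, 0.332). The DEX vs SAP interaction with time was -0.56 (standard error 0.518, edgeR adjusted p = 0.667), so a difference between the changes with and without DEX was not shown. SAP-6h rats had 11.7, 12.0 and 10.4 FPKM and SAP-24h rats 2.79, 5.21 and 8.54 FPKM. Between SAP and Sham the changes were 0.46 at 6 h and 0.14 at 24 h, with 95% intervals that include 0, and Sham-6h itself ran from 4.27 to 15.04 FPKM. Of the marker lists, that of red cells had r = 0.512 with Aqp4 over 30 rats (rho 0.418, permutation test p = 0.00456, adjusted p = 0.0342, that of rho 0.123; 0.436 without the 2 farthest rats, 0.298 within groups, 0.41 at 6 h and -0.284 at 24 h). Red cell marker sums overlapped between DEX-6h (977 to 8300 FPKM) and DEX-24h (1670 to 2070 FPKM). Endothelial marker sums were separate there in the direction of Aqp4 (1600 to 1800 FPKM against 1080 to 1230 FPKM), with r = 0.00663 over the 30 rats (rho 0.117, permutation test p = 0.972, adjusted p = 0.979). B and plasma cell marker sums were separate as well, in the same direction (34.5 to 54.7 FPKM against 8.86 to 22.4 FPKM), with r = 0.388 (rho 0.391, permutation test p = 0.0323, adjusted p = 0.145). The part of these lists in the Aqp4 result was not tested.

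Aqp5 (ENSRNOG00000051970, chromosome 7), the apical water channel of type 1 cells, was down-regulated in SAP lungs at 24 h. Sham-6h rats had 123, 125 and 376 FPKM and SAP-6h rats 65.8, 47.8 and 98.6 FPKM. All SAP-6h rats thus lay below all Sham-6h rats, with a log2 fold change of -1.52 (standard error 0.496) that did not pass the edgeR test (adjusted p = 0.168) but passed with DESeq2 (adjusted p = 0.0492). At 24 h, Sham-24h rats had 258, 194 and 152 FPKM, Con-24h rats 231, 329 and 176 FPKM and SAP-24h rats 25.2, 80.8 and 85.2 FPKM. The highest SAP-24h rat was below the lowest rat of either control group. Aqp5 was down-regulated by -1.55 against Sham-24h (standard error 0.496, edgeR adjusted p = 0.0421) and by -1.85 against Con-24h (standard error 0.501, edgeR adjusted p = 0.0114).

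These calls changed when single rats were left out, and each was lost with the compared groups alone. The call of SAP-24h vs Sham-24h was also lost without the filter on low counts. Without replicate 1 of SAP-24h, the rat low in type 1 markers, the change against Sham-24h was -1.18 (edgeR adjusted p = 0.177). That call was also lost without replicate 2 (-1.74) or 3 (-1.79) of SAP-24h and without replicate 1 (-1.33) or 2 (-1.56) of Sham-24h, and the call against Con-24h was lost without replicate 1 of SAP-24h (-1.49, adjusted p = 0.0669) or replicate 2 of Con-24h (-1.57). The 2 comparisons share the SAP-24h rats. DEX-6h rats had 23.8, 82.1 and 67.0 FPKM, again all below Sham-6h, and the log2 fold change was -1.82 (standard error 0.5, edgeR adjusted p = 0.0235). It was lost without replicate 3 of Sham-6h, the highest rat of all (-1.05, adjusted p = 0.174), and without replicate 1 (-1.45) or 3 (-1.92) of DEX-6h.

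In the treated rats at 24 h Aqp5 lay between SAP and Sham. DEX-24h had 81.4, 121 and 164 FPKM and Emo-24h had 127, 199 and 91.2 FPKM. The changes relative to SAP-24h were 0.87 with DEX (standard error 0.489, edgeR adjusted p = 0.292) and 0.99 with emodin (standard error 0.49, edgeR adjusted p = 0.2), and those relative to Sham-24h were -0.68 and -0.56. None passed. The 3 Emo-24h rats lay above all SAP-24h rats in FPKM, whereas DEX-24h overlapped with SAP-24h.

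Scnn1a (ENSRNOG00000019368, chromosome 4), the pore-forming alpha subunit without which ENaC carries little current, was not called between SAP and Sham. Its mean was 175 ± 16.3 FPKM in Sham-6h (SD, n = 3) and 181 ± 45.3 FPKM in SAP-6h, and 140 ± 6.64 FPKM in Sham-24h and 169 ± 20.3 FPKM in SAP-24h. The log2 fold changes were 0.10 and 0.40 with a standard error of 0.191, and their 95% intervals reached from -0.27 to 0.48 at 6 h and from 0.02 to 0.77 at 24 h. The 1 call was for time under emodin. Emo-6h rats had 207, 228 and 196 FPKM and Emo-24h rats 122, 130.2 and 139.5 FPKM, and Scnn1a fell by 0.73 on the log2 scale (standard error 0.192, edgeR adjusted p = 0.00574), which was kept in all 6 fits with a rat left out and in the 6 other settings. Marker sums that were separate between these groups were those of endothelium (1370 to 1950 FPKM in Emo-6h and 938 to 1130 FPKM in Emo-24h) and red cells (3960 to 10200 and 377 to 1630 FPKM), both in the direction of Scnn1a, and those of neutrophils in the other (1350 to 3800 and 4290 to 6630 FPKM). Over the 30 rats, r with Scnn1a was 0.233, 0.31 and -0.291 for these lists (permutation test p = 0.216, 0.094 and 0.119). Type 2 cell markers, which passed with Scnn1a (r = 0.506, permutation test p = 0.00441, adjusted p = 0.0342), had sums that overlapped. These were 29000 to 38300 FPKM in Emo-6h and 26300 to 31700 FPKM in Emo-24h. The part of all these lists in the fall of Scnn1a was not tested. In SAP rats without a drug, limma gave a change of -0.08 from 6 to 24 h (adjusted p = 0.845). The Emo vs SAP interaction with time was not called by edgeR, DESeq2 (-0.75, adjusted p = 0.0641) or limma (-0.61, adjusted p = 0.174). A difference between the changes with and without emodin was thus not shown. Emo-24h was also the group with the lowest mean, and its differences of -0.52 from SAP-24h (edgeR adjusted p = 0.0862) and -0.56 from DEX-24h (adjusted p = 0.0708) passed with DESeq2 only (adjusted p = 0.0419 and 0.0331).

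Scnn1b (ENSRNOG00000030981) and Scnn1g (ENSRNOG00000017842), both on chromosome 1, encode the beta and gamma subunits that raise the number of channels at the surface. Scnn1b had 12.0, 10.7 and 17.3 FPKM in Sham-6h and 8.70, 6.48 and 10.0 FPKM in SAP-6h, while Scnn1g had 22.8, 18.1 and 31.9 FPKM in Sham-6h and 9.97, 10.4 and 18.7 FPKM in SAP-6h. In Scnn1b the groups did not overlap, and in Scnn1g they overlapped by 1 rat. The log2 fold changes of -0.62 (standard error 0.286) and -0.86 (standard error 0.363) did not pass the edgeR test (adjusted p = 0.348 and 0.296). At 24 h, SAP-24h rats had 5.97, 16.4 and 10.2 FPKM of Scnn1b and 7.53, 26.1 and 20.2 FPKM of Scnn1g, both lowest in replicate 1. The changes against Sham-24h were -0.06 and -0.39. Against Con-24h, Scnn1b was called lower by limma (-0.81, adjusted p = 0.049) but not by DESeq2 (-0.59, adjusted p = 0.115) or edgeR. DEX-24h varied little for both subunits, with 14.8 ± 0.881 FPKM of Scnn1b and 23.9 ± 1.62 FPKM of Scnn1g (SD, n = 3).

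The beta and gamma subunits and Aqp5 moved together from rat to rat. Pearson's r of log2(FPKM + 1) over 30 rats was 0.874 for Scnn1b and Scnn1g (Spearman's rho 0.824, permutation test p = 1e-05, the least possible with 100000 permutations, adjusted p = 0.00012 over 36 pairs). It was 0.907 for deviations from the group means, 0.902 at 6 h, 0.846 at 24 h and 0.805 without the 2 farthest rats. Aqp5 followed Scnn1g with r = 0.863 (rho 0.729, permutation p = 1e-05, adjusted p = 0.00012; within groups 0.851, without the 2 farthest rats 0.751) and Scnn1b with r = 0.785 (rho 0.623, permutation p = 1e-05, adjusted p = 0.00012; within groups 0.813, without the 2 farthest 0.653). Scnn1a was less tied to them, with r = 0.359 for Scnn1b (permutation p = 0.0515, adjusted p = 0.133) and 0.253 for Scnn1g (permutation p = 0.179, adjusted p = 0.308), and 0.641 and 0.562 within groups. Of the 36 pairs, 11 passed, 7 positive and 4 negative.

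All 3 genes moved with the type 1 cell markers, a list of 8 genes (Ager, Hopx, Pdpn, Rtkn2, Clic5, Akap5, Cav1 and Emp2) that holds none of the 9. The r with the marker score was 0.902 for Scnn1g (rho 0.866, within groups 0.915, without the 2 farthest rats 0.832), 0.82 for Scnn1b (rho 0.754, within groups 0.857, 0.726) and 0.819 for Aqp5 (rho 0.688, within groups 0.746, 0.674), each with a permutation p of 1e-05 and an adjusted p of 0.0003 over 90 pairs. Scnn1a, whose r with the type 1 score was 0.143 over all rats (permutation p = 0.455, adjusted p = 0.695) but 0.563 within groups, went with the 9 type 2 markers (r = 0.506, rho 0.511, permutation p = 0.00441, adjusted p = 0.0342; within groups 0.716, without the 2 farthest 0.521), as did Scnn1b (r = 0.676, rho 0.647, permutation p = 4e-05, adjusted p = 0.0009; within groups 0.859, without the 2 farthest 0.667). For Scnn1g and the type 2 markers r was 0.464 (permutation p = 0.0102, adjusted p = 0.0582) and rho 0.518 (permutation p = 0.00429, adjusted p = 0.0333), with 0.778 within groups, and for Aqp5 r was 0.318 (permutation p = 0.0865, adjusted p = 0.251), with 0.694 within groups. With the 8 neutrophil markers r was negative, at -0.64 for Aqp5, -0.666 for Scnn1b and -0.509 for Scnn1g (permutation p = 0.00012, 0.00014 and 0.00418, adjusted p = 0.0018, 0.0018 and 0.0342). Within groups the last were -0.428, -0.418 and -0.354. The type 1 marker sum ran from 1530 to 3180 FPKM in SAP-24h but from 3040 to 4110 FPKM in Sham-24h, and 2190 to 3900 FPKM in DEX-6h and 2770 to 3930 FPKM in Sham-6h. Of the 8 type 1 markers, 2 were called lower in SAP-24h vs Sham-24h (12.4% of all genes called) and 1 lower in DEX-6h vs Sham-6h (9.75%). The 4 basal and squamous cell markers, whose score had r = 0.504 with Aqp5 (rho 0.487, permutation p = 0.00454, adjusted p = 0.0342; within groups 0.299, without the 2 farthest rats 0.34), were separate between groups, with sums of 32.8 to 48.0 FPKM in SAP-24h, 102 to 130 FPKM in Sham-24h and 109 to 144 FPKM in Con-24h. Neutrophil markers summed to 4490 to 16400 FPKM in SAP-24h, 207 to 9280 FPKM in Sham-24h and 111 to 968 FPKM in Con-24h, the last separate from SAP-24h. Ciliated cell markers were also lower in SAP-24h (281 to 547 FPKM) than in Sham-24h (580 to 697 FPKM) and Con-24h (779 to 834 FPKM), without overlap, and their score had r = 0.0649 with Aqp5 over 30 rats (rho 0.0416, permutation p = 0.735, adjusted p = 0.831) and 0.52 at 24 h. Endothelial markers were lower in SAP-24h (1050 to 1190 FPKM) than in Con-24h (1240 to 1510 FPKM) and higher in DEX-6h (1600 to 1800 FPKM) than in Sham-6h (1280 to 1290 FPKM). Club cell markers were higher in SAP-24h than in Sham-24h (37500 to 47300 against 20000 to 36100 FPKM). The part of these marker lists in the fall of Aqp5 was not tested.

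**Figure D3:**
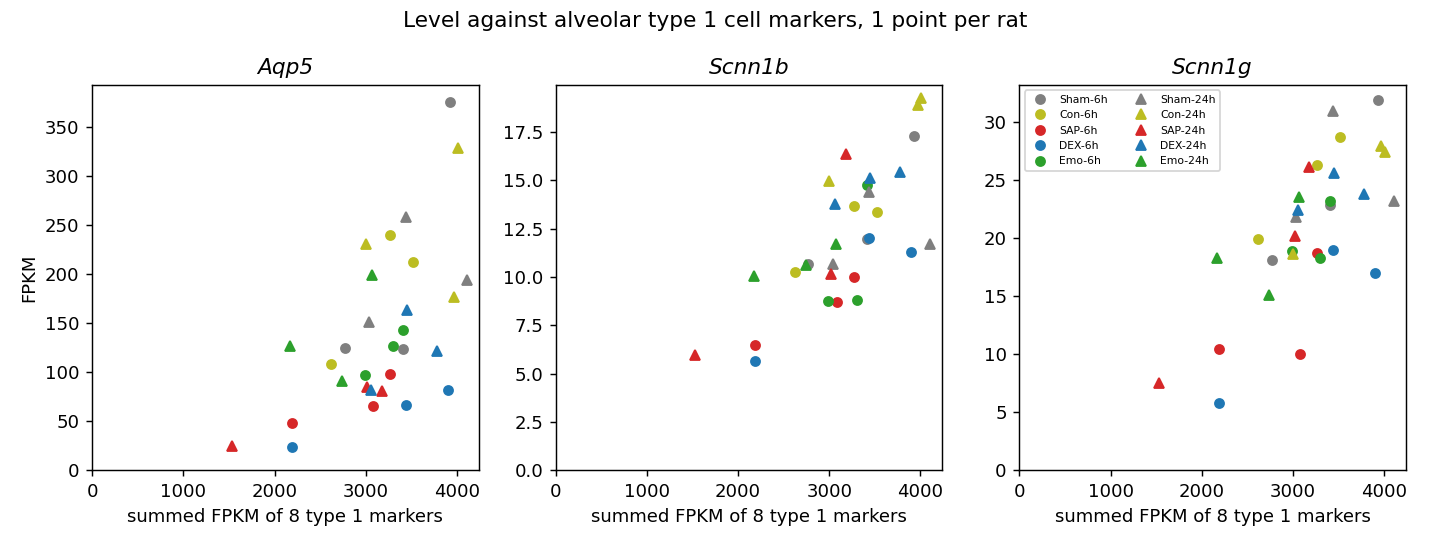
FPKM of Aqp5, Scnn1b and Scnn1g (vertical axes) against the summed FPKM of 8 alveolar type 1 cell markers (horizontal axis), 1 point per rat, coloured by group with circles at 6 h and triangles at 24 h. Replicate 1 of SAP-24h, at a marker sum of 1530 FPKM, lies at the lower left in each panel.

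Atp1b1 (ENSRNOG00000002934, chromosome 13), the beta 1 subunit of the sodium pump, had its highest group means in DEX-6h (270 FPKM) and DEX-24h (244 FPKM). Sham-6h rats had 131, 135 and 109.9 FPKM, SAP-6h rats 172, 178 and 207 FPKM and DEX-6h rats 261, 242 and 308 FPKM, so the 3 groups were separate from each other. Against Sham-6h, DEX-6h was up-regulated by 1.15 on the log2 scale (standard error 0.298, edgeR adjusted p = 0.0174). The change was 0.62 for SAP-6h vs Sham-6h (standard error 0.296, adjusted p = 0.376) and 0.53 for DEX-6h vs SAP-6h (standard error 0.295, adjusted p = 0.511), and neither step passed alone. The call against Sham-6h was lost without replicate 3 of DEX-6h (1.08) and without replicate 1 (1.17) or 3 (1.08) of Sham-6h, with adjusted p-values of 0.0564 to 0.0611. Endothelial marker sums were separate in the same direction (1600 to 1800 FPKM in DEX-6h and 1280 to 1290 FPKM in Sham-6h), with r = -0.351 with Atp1b1 over 30 rats (rho -0.264, permutation test p = 0.0575, adjusted p = 0.236).

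At 24 h the pump subunit was lower with emodin than with DEX. DEX-24h rats had 239, 205 and 289 FPKM and Emo-24h rats 106, 76.3 and 143 FPKM. The lowest DEX-24h rat lay above the highest Emo-24h rat, a log2 fold change of -1.22 for Emo-24h vs DEX-24h (standard error 0.299, edgeR adjusted p = 0.0119). It was lost without replicate 3 of DEX-24h (-1.12) and without replicate 1 (-1.18) or 2 (-1.04) of Emo-24h. SAP-24h rats had 146, 269 and 178 FPKM, and Emo-24h was lower than SAP-24h by -1.0 (standard error 0.298, edgeR adjusted p = 0.0395). This call was lost without replicate 2 of SAP-24h (-0.76), without replicate 1 (-0.96) or 2 (-0.82) of Emo-24h, and with limma. The control groups at 24 h varied much, from 116 to 211 FPKM in Sham-24h and 63.3 to 195 FPKM in Con-24h. DEX-24h overlapped with SAP-24h and was not called against it (0.22, edgeR adjusted p = 0.695) or against Sham-24h (0.75, edgeR adjusted p = 0.138). Emo-24h did not differ from Sham-24h by the test (-0.47, standard error 0.295, edgeR adjusted p = 1). Between Emo-24h and DEX-24h, red cell marker sums were separate in the direction of Atp1b1 (377 to 1630 and 1670 to 2070 FPKM), and neutrophil (4290 to 6630 and 1020 to 2980 FPKM) and B and plasma cell sums (39.3 to 61.5 and 8.86 to 22.4 FPKM) in the other. Between Emo-24h and SAP-24h, B and plasma cell sums (19.6 to 33.8 FPKM in SAP-24h) and basal and squamous cell sums (76.3 to 89.1 and 32.8 to 48.0 FPKM) were separate, opposite to Atp1b1. None of the 10 marker lists passed with Atp1b1 over the 30 rats (permutation test, lowest adjusted p 0.236 for r and 0.148 for rho). The part of these lists in the Atp1b1 results was not tested.

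**Figure D4:**
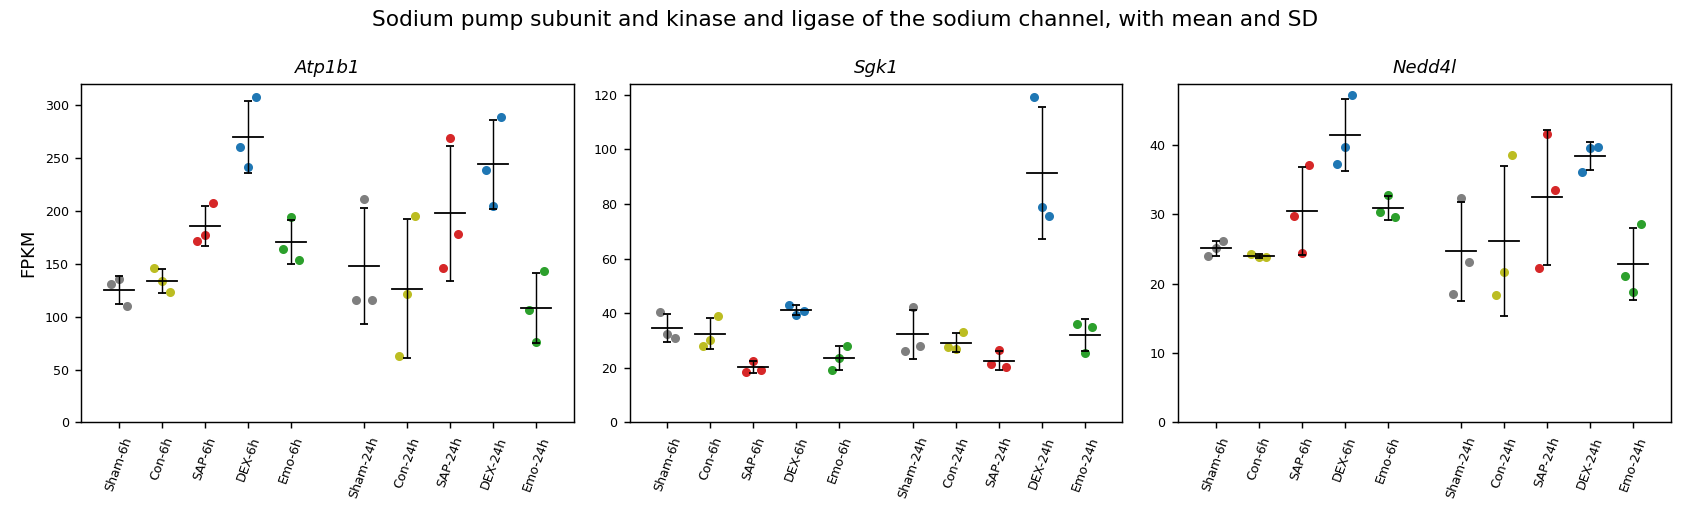
FPKM (vertical axes, linear) of the sodium pump subunit Atp1b1, the kinase Sgk1 and the ubiquitin ligase Nedd4l in the 10 groups. Points are rats, lines are means and whiskers SD (n = 3). By group mean, Atp1b1 was highest in DEX-6h and Sgk1 was highest in DEX-24h, where its rats had 75.6 to 119 FPKM.

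Cftr (ENSRNOG00000055103, chromosome 4) was expressed at 0.37 to 1.79 FPKM in every library, from 82 to 349 reads. Group means lay between 0.580 ± 0.243 FPKM in DEX-24h and 1.22 ± 0.565 FPKM in SAP-6h (SD, n = 3). The largest log2 fold change was -0.77 in DEX-24h vs Sham-24h, with a 95% interval that includes 0, and no comparison was called by edgeR, DESeq2 or limma.

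Other genes of the pathway were followed in 5 lists, for the sodium pump and its FXYD regulators (10 genes tested), regulators of ENaC (26), adrenergic, dopamine and cAMP genes (16), other ion transporters (21) and other aquaporins (5), 78 in all. Nr3c1, Tsc22d3 and Gnas carried 2 gene IDs each, which were counted separately. In SAP-6h vs Sham-6h, 0 of the 78 were called by edgeR, beside 0.27% of all genes (17 at an unadjusted p, beside 13.1% of all genes), and in SAP-24h vs Sham-24h 3 were higher and 8 lower (12.4% of all genes called). As for the 9 genes, these counts lie beside the shares of all genes and nothing particular to the lists is read from them. The 3 with the largest changes among those called at 24 h were all lower in SAP-24h. Gabrp, a chloride channel subunit, was at 0.280 ± 0.225 FPKM in SAP-24h, against 1.56 ± 0.293 FPKM in Sham-24h (SD, n = 3; log2 fold change -2.36, edgeR adjusted p = 0.0373). Adra1d, an alpha 1 adrenergic receptor, had 0.423 ± 0.208 and 1.57 ± 0.491 FPKM (-1.77, adjusted p = 0.00269), and the beta 1 adrenergic receptor Adrb1 3.80 ± 1.36 and 9.45 ± 2.39 FPKM (-1.2, adjusted p = 0.0166). With 1 rat left out, the Adra1d call was kept in all 6 fits, but it was lost when the compared groups were fitted alone (adjusted p = 0.101). The call of Gabrp was lost without replicate 1 or 2 of SAP-24h or of Sham-24h (range over the 6 fits -3.19 to -2.01), and that of Adrb1 without replicate 1 of SAP-24h or 1 or 2 of Sham-24h (-1.47 to -0.99), and both were also lost with the compared groups alone. Adrb1 is also a gene of heart muscle, and heart muscle markers had a sum of 7.46 to 136 FPKM in SAP-24h (median 11.1) and 11.8 to 183 FPKM in Sham-24h (median 147). Ciliated (281 to 547 against 580 to 697 FPKM) and basal and squamous cell markers (32.8 to 48.0 against 102 to 130 FPKM) were lower in SAP-24h without overlap, in the direction of the 3 genes. The part of these lists in the 3 results was not tested.

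With DEX, 1 of the 78 was higher and 0 lower at 6 h, and 4 were higher and 3 lower at 24 h, both against SAP (0.979% and 7.71% of all genes called). Sgk1, the kinase that keeps ENaC at the surface and a textbook glucocorticoid target, was the gene called at 6 h and was called again at 24 h. It had 18.6, 22.7 and 19.4 FPKM in SAP-6h and 43.0, 39.3 and 41.0 FPKM in DEX-6h (log2 fold change 1.02, standard error 0.203, edgeR adjusted p = 0.0158; lost without replicate 1 of DEX-6h or replicate 2 or 3 of SAP-6h). At 24 h Sgk1 had 21.3, 26.5 and 20.2 FPKM in SAP-24h but 119, 79.0 and 75.6 FPKM in DEX-24h (1.92, standard error 0.208, edgeR adjusted p = 2.2e-05). The groups were far apart at 24 h, and none of the 6 fits with a rat left out lost the call. Emo-24h rats had 35.9, 25.5 and 35.1 FPKM of Sgk1, lower than DEX-24h by -1.57 (standard error 0.206, edgeR adjusted p = 8.87e-05). In DEX-24h vs SAP-24h, Scnn1a, Scnn1b and Scnn1g were not called, with log2 fold changes of 0.04, 0.38 and 0.35. Among the others called there was Fxyd4, a regulator of the pump (1.99, edgeR adjusted p = 0.0389). This call was lost in 5 of 6 fits with a rat left out (range 1.39 to 2.27) and kept only without replicate 1 of DEX-24h, and it was lost with the compared groups alone. Beside these calls at 24 h, basal and squamous cell markers were higher in DEX-24h (80.5 to 171 FPKM, against 32.8 to 48.0 FPKM in SAP-24h), and club cell (25400 to 36400 against 37500 to 47300 FPKM) and neutrophil markers (1020 to 2980 against 4490 to 16400 FPKM) were lower, each without overlap, and the part of such lists was not tested.

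With emodin, 0 of the 78 were called at 6 h (Emo-6h vs SAP-6h, edgeR, beside 0.0314% of all genes; 5 at an unadjusted p, beside 13.5%), and 4 were higher and 4 lower at 24 h (8.59% of all genes called). The largest changes among those called were those of Adra1d (1.78 ± 0.356 FPKM in Emo-24h against 0.423 ± 0.208 FPKM in SAP-24h, log2 fold change 1.92, edgeR adjusted p = 0.00387), the potassium channel Kcnn4 (1.16, adjusted p = 0.0294) and Adrb1 (1.02, adjusted p = 0.0442). The Adra1d call was kept in all 6 fits with a rat left out but lost with the compared groups alone (adjusted p = 0.104). That of Kcnn4 was lost without replicate 1 or 2 of Emo-24h or 2 or 3 of SAP-24h (range 0.94 to 1.46), and that of Adrb1 without replicate 1 or 2 of Emo-24h or 1 or 3 of SAP-24h (range 0.82 to 1.29). Both were also lost with the compared groups alone, and Adrb1 without the filter. Heart muscle markers summed to 128 to 264 FPKM (median 202) in Emo-24h against 7.46 to 136 FPKM (median 11.1) in SAP-24h, higher in the same direction as Adrb1 with ranges that overlapped. Markers of basal and squamous cells (76.3 to 89.1 against 32.8 to 48.0 FPKM) and of B and plasma cells (39.3 to 61.5 against 19.6 to 33.8 FPKM) were higher in Emo-24h without overlap, in the direction of the 3 genes. The part of these lists was not tested. Between the drugs, 1 was higher and 2 lower in Emo-6h vs DEX-6h (2.88% of all genes called), and 4 were higher and 12 lower in Emo-24h vs DEX-24h (8.89%). From 6 to 24 h, 17 of the 78 rose and 8 fell with DEX, 7 rose and 13 fell with emodin, and 4 rose and 4 fell in SAP without a drug, where 25.9%, 34.1% and 6.01% of all genes were called. Slc5a1, a sodium and glucose cotransporter, rose in the 3 comparisons, by 3.38, 2.19 and 1.79 on the log2 scale with DEX, emodin and no drug, from levels of at most 0.543 FPKM (mean) at 6 h. The last was lost without replicate 2 or 3 of SAP-24h or any rat of SAP-6h (range 1.31 to 2.17), with the compared groups alone and with limma. Between SAP-24h and SAP-6h, 6 of the 10 marker lists were separate, and of these club cells (37500 to 47300 against 28200 to 29500 FPKM) and neutrophils (4490 to 16400 against 2000 to 4470 FPKM) were higher at 24 h, as was Slc5a1, and the part of such lists was not tested.

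Genes with the most similar pattern were sought by Pearson's r of log2(FPKM + 1) over the 30 rats among 12409 genes with a mean of at least 1 FPKM, and the 3 nearest of each member are described. Correlation over libraries includes group differences, tissue make-up and depth. For Atp1b1 they were Nedd4l (r = 0.919), Fkbp5 (0.914) and Spsb1 (0.889). Nedd4l is a ubiquitin ligase that removes ENaC from the membrane and Fkbp5 a well-known glucocorticoid target. For Aqp5 the nearest was Wnt7a (0.919), a secreted signalling protein, then Mrpl14 (0.89) and Phactr1 (0.881). Wnt7a had 3.71, 2.62 and 7.5 FPKM in Sham-6h and 0.97, 0.94 and 1.13 FPKM in SAP-6h, with the same rat highest in Sham-6h as for Aqp5.

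Scnn1b had Tspan15 (0.88), a tetraspanin, Scnn1g (0.874) and Sh3tc1 (0.873) as its nearest genes, and Scnn1g had P3h2 (0.896), Epn3 (0.893) and again Tspan15 (0.876). For Aqp1 they were Ssbp3 (0.87), St3gal4 (0.856) and Nos3 (0.839), the nitric oxide synthase of endothelium, and for Scnn1a LOC498222 (0.858), Fam83h (0.845) and Ttc22 (0.837). The nearest genes to Aqp4 were Osbpl2 (0.79), Bmp2k (0.744) and Gpr180 (0.738). Aqp3 had the weakest, with Lcn2 (0.706), a secreted protein of neutrophils and injured epithelium, Tmem52 (0.693) and Rdh16 (0.692). Within groups, r was 0.613, 0.413 and 0.0749 for the 3 genes named with Aqp3, 0.696, 0.192 and 0.7 for those with Aqp4 and 0.778, 0.58 and 0.557 for those with Aqp1, in the order given. For the other links it was 0.774 to 0.907. For Cftr, with a mean under 1 FPKM, none was sought. Of the 24 links, 21 were found again with a pseudocount of 0.1 and 15 with Spearman's rho.

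The calls differed in how much they rested on single rats. Over 12 refits of each of the 15 calls (6 settings and 6 fits that left out 1 rat of the compared groups), 135 of 180 kept the call, 45 lost it and 0 reversed its direction. Aqp1 in DEX-24h vs SAP-24h, Aqp1 and Aqp4 in DEX-24h vs DEX-6h and Scnn1a in Emo-24h vs Emo-6h were kept in all 12, and these 4 were the only ones. All 4 are lower in a treated group at 24 h. Fitting the compared groups alone lost the 3 other Aqp1 calls, all calls of Aqp3 and Aqp5 and that of Atp1b1 in Emo-24h vs SAP-24h. The share of all genes called in those fits varied with the kind of comparison (both times together). It was 0.01% for SAP vs Sham, 0% for Emo vs SAP and 0.531% for comparisons with Con. It was higher for DEX vs SAP (1.41%), the drug groups vs Sham (2.25%), Emo vs DEX (5.7%) and 24 h vs 6 h (11.9%).

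**Figure D5:**
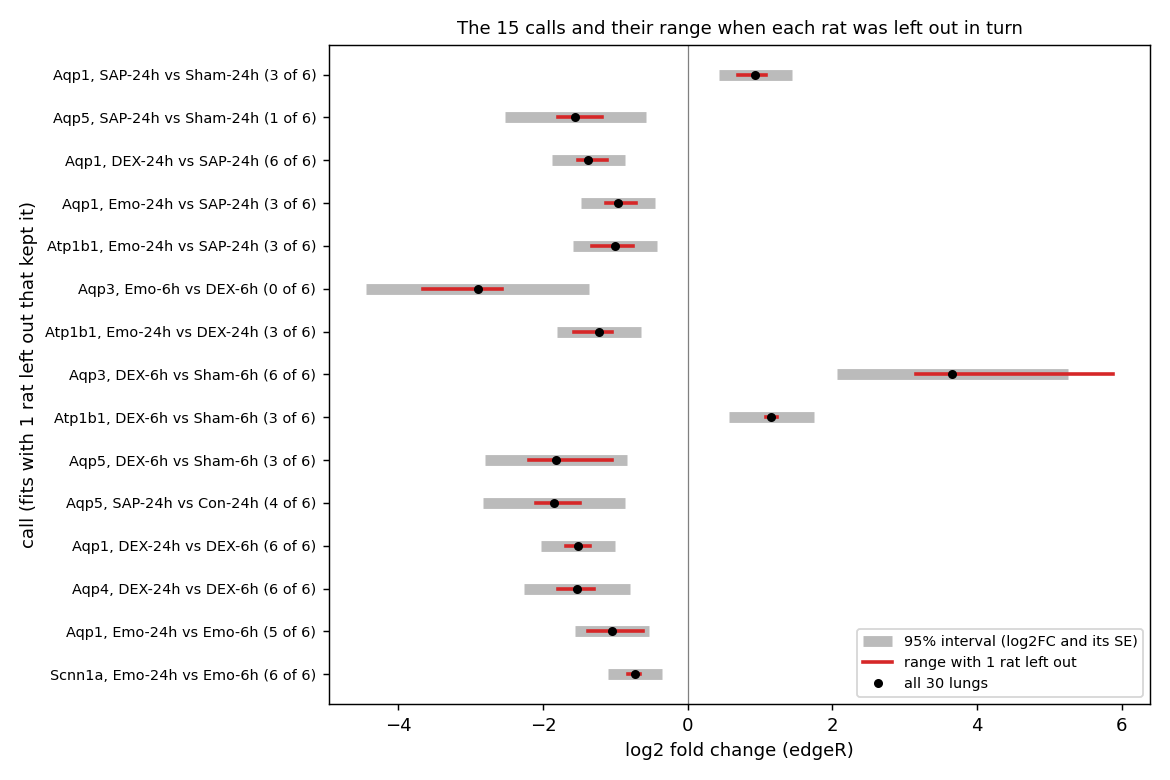
The 15 calls with their log2 fold change over all 30 rats (point), its 95% interval (grey bar) and the range when each rat of the compared groups was left out in turn (red line). Numbers in brackets are the fits, of 6, that kept an adjusted p under 0.05. No range crosses 0, and Aqp3 in Emo-6h vs DEX-6h was kept in 0 of 6.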

How the data were processed

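Poly(A) RNA of 30 rat lungs was sequenced as directional libraries. Per the methods, the authors aligned reads with TopHat2, discarded reads with several hits and used an Ensembl annotation of the rat genome version rat_ensembl_v6. The program that counted reads, and whether it used strand, are not given in the sources used here. The authors deposited read counts per gene (22914 genes, not normalised) and FPKM values (22907 genes). Sample groups were taken from the labels.

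Counts were fitted in edgeR 4.0.16 (R 4.3.3) with TMM scaling (factors 0.888 to 1.1) and filterByExpr (minimum count 10, total 15), leaving 15934 genes. All 10 groups entered 1 quasi-likelihood model with 20 residual degrees of freedom, and p-values were adjusted by Benjamini-Hochberg over all genes tested. DESeq2 1.42.0, limma 3.58.1 on log2(FPKM + 0.1), RLE scaling, no filter, the compared groups alone, a replicate block and each library left out were alternatives. Levels are given in FPKM, the deposited unit, with mean ± SD over 3 rats. Correlations used log2(FPKM + 1) and 100000 permutations (numpy 2.4.6, scipy 1.17.1, two-sided), and the marker score is the mean of the list's log2 values.

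Members and lists were chosen with earlier results of these data known. All 9 members are named. Of the pathway lists, up to 3 genes per main comparison are named, those called with the largest absolute log2 fold change whose mean reached 1 FPKM in either group, and Sgk1 and Nedd4l are shown across groups for their role beside the members. Some genes of these lists are not reported here. Markers not matched by symbol were Foxj1, Pecam1 and Jchain, and of the pathway lists Grk2. The 3 libraries of a group are separate rats whose counts differed by more than sampling noise (chi-square per degree of freedom 35.4 to 197). Promoters came from RefSeq (GRCr8), whose coordinates are not those of the deposited files.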

Additional observations from a re-analysis of the deposited data

Results flagged for a closer look

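The emodin effect (Emo vs SAP) differed between 6 and 24 h by the interaction term of the edgeR model for 3 of the 78 genes of the pathway lists, 2 higher and 1 lower at 24 h, where 3.57% of all genes were called. They are the adrenergic receptor Adra1d, the glucocorticoid receptor gene Nr3c1 (1 of its 2 gene IDs) and Furin, a protease that cleaves ENaC, and the last 2 were added after their values were seen. The log2 fold change of Adra1d was 0.22 at 6 h and 1.92 at 24 h, a difference of 1.7 (standard error 0.466, adjusted p = 0.0448). It ranged from 1.44 to 2.11 with 1 rat left out and lost the call in 8 of these 12 fits (without replicate 1 or 2 of Emo-24h, 1 or 3 of Emo-6h, 1 or 2 of SAP-24h, or 2 or 3 of SAP-6h). It also lost it without the filter and with the compared groups alone. For Nr3c1 it was -0.21 at 6 h and 0.54 at 24 h, a difference of 0.75 (standard error 0.172, adjusted p = 0.0267; 0.64 to 0.85 with 1 rat left out). That call was lost without replicate 1 or 2 of Emo-24h, 1 or 3 of Emo-6h or 2 of SAP-6h, and with the compared groups alone. For Furin it was 0.23 at 6 h and -0.45 at 24 h, a difference of -0.68 (standard error 0.152, adjusted p = 0.0251; -0.8 to -0.57 with 1 rat left out). That call was lost without replicate 1 or 2 of Emo-24h, 1 of Emo-6h or 2 of SAP-6h, with the compared groups alone and with limma. None of the 9 channel and pump genes was called for an interaction by edgeR (3 of 27 tests at an unadjusted p, beside 16.5% of those over all genes).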

How the results depend on the processing

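No alternative reversed the direction of a call. Limma turned the sign of some small changes that were not called, among them Aqp4 in SAP-24h vs Sham-24h (0.14, with limma -0.09) and, in Emo-24h vs SAP-24h, Scnn1b (-0.14, with limma 0.11) and Scnn1g (-0.06, with limma 0.23). The number of calls among the 9 genes (in brackets the percentage of tests over all genes) was, both times together, 2 (6.34%) for SAP vs Sham, but 4 (9.59%) with DESeq2, 1 (3.57%) without the filter, 0 (0.01%) with the compared groups alone, 1 (2.61%) at 2-fold or more, 9 (20.7%) at an unadjusted p and 0 to 2 with 1 rat left out. For DEX vs SAP it was 1 (4.35%), but 2 (1.41%) with the compared groups alone, 2 (17.6%) at an unadjusted p and 1 to 1 with 1 rat left out. For Emo vs SAP it was 2 (4.31%), but 0 (0%) with the compared groups alone, 0 (4.58%) with limma, 1 (1.61%) at 2-fold or more and 0 to 2 with 1 rat left out. For Emo vs DEX it was 2 (5.89%), but 1 (5.39%) with the replicate block, 5 (19.3%) at an unadjusted p and 1 to 3 with 1 rat left out. For the drug groups vs Sham it was 3 (5%), but 1 (2.25%) with the compared groups alone, 8 (17.7%) at an unadjusted p and 1 to 4 with 1 rat left out. For comparisons with Con it was 1 (8.03%), but 2 (8.15%) with RLE scaling, 3 (10.2%) with DESeq2, 0 (0.531%) with the compared groups alone, 2 (8%) with limma, 10 (20.3%) at an unadjusted p and 0 to 3 with 1 rat left out. For 24 h vs 6 h it was 4 (13.4%), but 11 (27.5%) at an unadjusted p and 3 to 5 with 1 rat left out. For the interactions it was 0 (1.26%), but 3 (16.5%) at an unadjusted p and 0 to 0 with 1 rat left out. Leaving out rats or groups leaves fewer samples, and otherwise the cause was not tested. The labels give no meaning for the replicate numbers. Same-numbered rats deviated together with a mean r of -0.00848 (from -0.363 to 0.359), 33 of 135 pairs were over 0.1 and 8 of 30 libraries were closest to their own number. A mean over pairs cannot show whether some groups share a batch by number, which is not known. The replicate block changed no other count by over 1.5 times. Read depth was lowest for Cftr, with 82 to 349 reads.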
